A study of Mus musculus with 8 samples.

Results

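CD8 T cells that carry transcripts of granzymes C, D, E and F were followed in tumours of mice given an interleukin 7 drug, alone or with a T cell engager. A cell was placed in this set when its barcode had at least 500 detected genes, under 10% mitochondrial UMIs (unique molecular identifiers, which count captured transcripts), at least 1 UMI of Cd8a or Cd8b1, at least 1 UMI of Cd3d, Cd3e or Cd3g, no Cd4 UMI, at most 1 UMI over Lyz2 and the C1q genes, at most 1 UMI over Mki67 and Top2a, and at least 5 UMIs summed over Gzmc, Gzmd, Gzme and Gzmf. The set held 4326 of the 22469 barcodes that passed every other step, out of 36011 barcodes in all. The other 18143 barcodes of the same gate are called the rest. The members were thus chosen by the measured levels of these 4 granzymes, and their levels are given as a description.

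Granzymes are serine proteases that cytotoxic lymphocytes store in granules and release into target cells through pores made by perforin. Granzyme B, which cuts after aspartate and starts apoptosis, and granzyme A, a tryptase, are the best known. Mice carry a further group of closely related genes, Gzmc to Gzmg, next to Gzmb, without counterparts in the human genome. They are known from strongly stimulated cytotoxic T cells and natural killer (NK) cells, and their substrates are less well described.

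The cells were CD8 T cells isolated from tumours of MC38, a mouse colon carcinoma line, grown in wild-type C57BL/6 mice, and the sources used here give neither the age of the mice nor their number per library. In experiment 1, mice received either buffer or 10 mg/kg of rhIL-7-hyFc, a long-acting recombinant interleukin 7 fused to a hybrid Fc, under the skin. Tumours were taken 7 days after the drug, and CD8 T cells were enriched with magnetic beads (IMag). In experiment 2, all mice received 1.25 mg/kg of rhIL-7-hyFc under the skin, and 1 of the 2 groups was also given an intravenous T cell engager (TCE), a molecule that binds mouse PD-L1 and CD3ε, from day 3 on. Tumours were taken 24 hours after the last treatment, and viable CD45+ TCRb+ CD8a+ cells were sorted. Experiment 2 has no group without the interleukin 7 drug. Each group was 1 library of 5′ single-cell RNA sequencing with a matching T cell receptor (TCR) library. Differences between groups therefore have no replicate check and carry no p-value, and their intervals cover counting error only. Since the experiments differed in dose, timing, isolation and software, ratios and differences between treatments were taken within an experiment only. The libraries are called buffer, 10 mg/kg, 1.25 mg/kg and TCE below, and values are given in that order.

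The 4 granzymes of the rule lie in a cluster on the minus strand of chromosome 14 (GRCm38, with gene positions from GENCODE M21). From the centromere side the order of protein-coding genes is Mcpt8 (14:56082166-56085273), a basophil protease gene, then Ctsg (14:56099881-56102574). The granzymes follow as Gzme (14:56117626-56120625), Gzmd (14:56129556-56132608), Gzmg (14:56156582-56159579), Gzmn (14:56165797-56174599), Gzmf (14:56205263-56211417), Gzmc (14:56231441-56234656) and Gzmb (14:56258838-56262260). The transcripts of Gzmd and Gzme are 90.0% identical, those of Gzme and Gzmg 88.1%, those of Gzmf and Gzmg 87.5% and those of Gzmc and Gzmf 69.7%. Reads could thus be split or lost between these genes in the authors' counting, and the summed level is firmer than the single values. The 250 bases before the start of Gzmf (14:56211408-56211657), Gzmc (14:56234658-56234907) and Gzmb (14:56262335-56262584) are shown from RefSeq (GRCm38.p6, minus strand), since the first pair make up most of the sum and Gzmb is the neighbour with a different pattern over the groups. All 7 granzyme genes of the cluster had an entry. Capitals mark matches, on either strand, to the motifs searched.
Gzmf: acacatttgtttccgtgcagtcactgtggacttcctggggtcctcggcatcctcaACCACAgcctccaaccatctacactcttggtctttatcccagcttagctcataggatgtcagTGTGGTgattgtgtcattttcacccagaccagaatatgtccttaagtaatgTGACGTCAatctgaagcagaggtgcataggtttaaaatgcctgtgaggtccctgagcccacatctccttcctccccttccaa
Gzmc: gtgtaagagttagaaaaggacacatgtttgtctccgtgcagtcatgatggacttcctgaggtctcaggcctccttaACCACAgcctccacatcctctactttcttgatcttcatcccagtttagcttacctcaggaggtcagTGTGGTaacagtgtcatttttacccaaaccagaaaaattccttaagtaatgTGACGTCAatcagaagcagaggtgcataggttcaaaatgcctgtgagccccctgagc
Gzmb: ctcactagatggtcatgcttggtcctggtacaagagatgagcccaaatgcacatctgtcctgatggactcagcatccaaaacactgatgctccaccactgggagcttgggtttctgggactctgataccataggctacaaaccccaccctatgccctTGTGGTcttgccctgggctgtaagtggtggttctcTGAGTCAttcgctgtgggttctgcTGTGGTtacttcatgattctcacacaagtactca

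The motifs searched were TGTGGT (the core that Runx factors bind), TGACGTCA (the cAMP response element, chosen after the sequences had been seen), TGANTCA (AP-1), TTCNNNGAA (STAT) and AGGTGTGA (T-box). No 2 marked matches overlapped in these 3 windows. TGTGGT matched at 2 places in each of Gzmb, Gzmc, Gzmd, Gzme, Gzmf and Gzmg and nowhere in Gzmn. Over the 32851 windows of the same length in the table, 14.05% held this motif and 1.27% held it at least 2 times. TGACGTCA matched once in Gzmc, Gzmf and Gzmg, against 1.55% of all windows. TGANTCA matched once in Gzmb, against 6.75% of all windows. TTCNNNGAA (7.02% of windows) and AGGTGTGA (1.12%) had no match in any of the 7 windows. The windows of Gzmd and Gzme were 94.8% identical, those of Gzmf and Gzmg 82.2% and those of Gzmc and Gzmf 70.2%. Gzmb shared between 45.5% and 49.5% of aligned positions with each of the others. A match describes letters and is not evidence of binding.

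Members made up 29.4% of gated cells in the buffer library (739 of 2515, 95% Clopper-Pearson interval 27.6 to 31.2). They made up 6.35% after 10 mg/kg (309 of 4864, 5.68 to 7.08). In experiment 2 the share was 18.7% after 1.25 mg/kg alone (1205 of 6430, 17.8 to 19.7) and 23.9% with the TCE (2073 of 8660, 23.04 to 24.9). The buffer share was thus 4.63 times the 10 mg/kg share, and the TCE share 1.28 times that without it. Both gaps had the same direction at each threshold tried on all UMIs, and the second one vanished when a threshold of 20 was combined with equal depth. With a sum of at least 20 UMIs the shares were 16.0%, 5.24%, 14.1% and 16.2%. With each cell thinned to 3000 UMIs and a sum of at least 20, they were 11.6%, 3.72%, 10.8% and 10.8%, so that the 2 groups of experiment 2 differed by -0.05 percentage points (TCE minus alone). Thinning left out 484, 156, 532 and 394 gated cells that had fewer UMIs.

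Low counts of these granzymes were found in most buffer barcodes, also in those of another cell type, and whether they came from free RNA, doublets or uptake was not tested. Of barcodes with macrophage markers and no Cd3 or Cd8 UMI, 78.8% of 52 in buffer had at least 1 UMI of the 4 granzymes, with a median of 8946 UMIs per barcode. The shares were 15.5% of 97 after 10 mg/kg (median 14347 UMIs), 9.59% of 490 after 1.25 mg/kg (5900) and 3.51% of 57 with the TCE (6491). At the threshold of 5 UMIs, 0, 1, 6 and 0 of these barcodes passed. For buffer, 0 of 52 leaves room for a share of up to 5.77% (3 counts of the total), or 6.85% as the upper limit of the 95% Clopper-Pearson interval. Among the rest, 86.2%, 19.9%, 13.7% and 12.8% of cells had at least 1 UMI of the sum. Values that turn on buffer cells near the threshold are given by the size of the sum below.

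**Figure D1:**
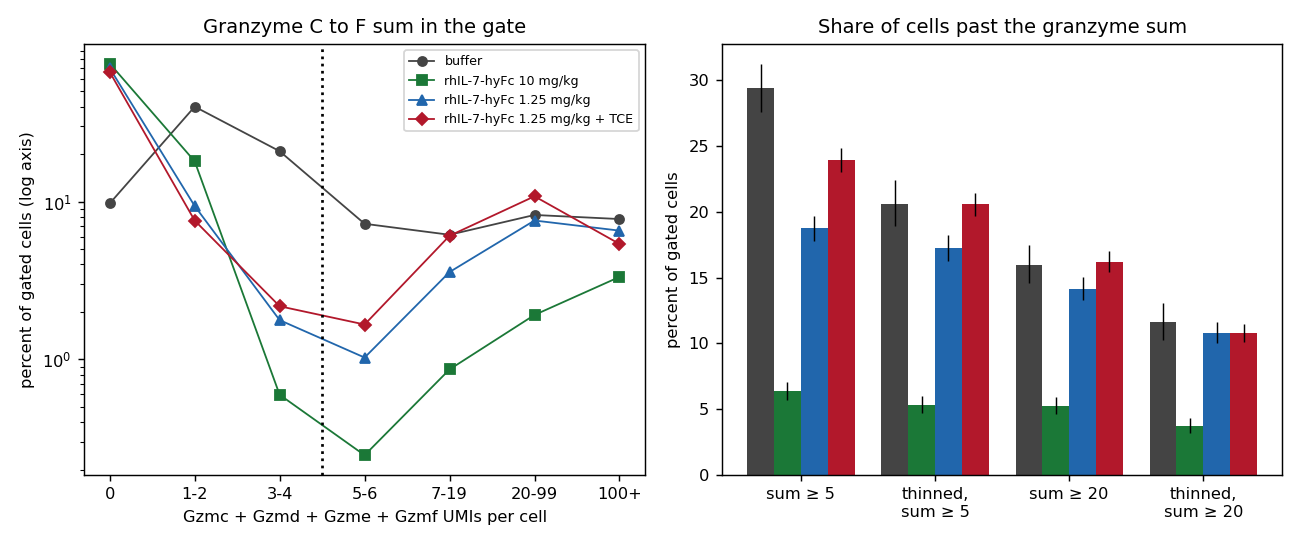
Left, percent of gated cells (log axis) in each bin of summed Gzmc, Gzmd, Gzme and Gzmf UMIs per cell, by library, with the threshold of 5 as a dotted line. Right, percent of gated cells past a sum of 5 or 20, before and after thinning to 3000 UMIs, with 95% Clopper-Pearson intervals. Buffer cells pile up at 1 to 4 UMIs, the bins are of unequal width, so that the upper ones span more UMI values, and the 10 mg/kg library has the lowest share in each of the 4 settings.

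Members differed widely in how much of these transcripts they held. The median sum per member was 24 UMIs in buffer (quartiles 7 and 117.5, highest 4087), 114 after 10 mg/kg (39 and 243, highest 1343), 54 after 1.25 mg/kg (20 and 145, highest 1978) and 36 with the TCE (15 and 90, highest 1964). Within experiment 1 the 10 mg/kg library thus had fewer members and a larger median sum per member than buffer. Gated cells just below the threshold, with a sum of 3 or 4, numbered 525, 29, 114 and 188. Those just above it, with 5 or 6, numbered 182, 12, 66 and 144.

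Gzmf led the sum in every library, with 61.7%, 59.8%, 65.1% and 69.5% of its UMIs. Gzmc gave 27.1%, 30.7%, 24.9% and 18.2%, Gzmd 6.28%, 4.79%, 5.43% and 6.39%, and Gzme 4.97%, 4.77%, 4.65% and 5.81%. These are shares of 5′ UMIs, which are not scaled by length. In CPM (the gene's UMIs over all UMIs of the summed cells, on the usual counts-per-1e6 scale), Gzmf stood at 7551, 8191, 9038 and 7389 in members and at 153, 11.3, 14.9 and 18.2 in the rest. Gzmc stood at 3313, 4204, 3454 and 1939 in members and at 85.7, 10.6, 20.05 and 13.1 in the rest. Gzmd reached 768, 657, 755 and 679 CPM and Gzme 609, 653, 646 and 617 CPM in members. Because the rule chose on these genes, both the gap to the rest and the makeup of the sum are descriptions. Within experiment 2, Gzmc was the only gene of the 4 with a smaller share of the sum with the TCE than without it.

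The 4 granzymes were not always detected together. All 4 were seen in 21.4%, 31.7%, 25.3% and 22.3% of members, and 53, 48, 259 and 524 members had UMIs of 1 of them only. These counts depend on the size of the sum, whose lower quartile was 7, 39, 20 and 15 UMIs. With so few UMIs, Gzmd and Gzme, which give little of the sum, can go undetected in cells that express them. How far this accounts for the counts, or for their differences between libraries, was not tested. Gzmf was seen in 96.5%, 86.7%, 88.0% and 93.3% of members and Gzmc in 88.6%, 90.9%, 79.6% and 69.6%. Across members thinned to 3000 UMIs (647, 301, 1175 and 2040 cells), Spearman's rho between Gzmd and Gzme was 0.65, 0.75, 0.70 and 0.71, which includes any reads shared by these near-identical genes. Between Gzmc and Gzmf rho was 0.22, 0.30, 0.23 and 0.29. Between Gzmf and Gzmb it was 0.33, 0.20, 0.16 and 0.19, and between Gzmf and Gzma -0.10, -0.17, -0.08 and -0.15. These coefficients describe cells of 1 library each, chosen on the sum, and carry no test.

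The label was checked against markers. Of the T cell markers, Cd3d, Cd3e, Cd3g, Cd8a and Cd8b1 were used by the rule, so their presence is no check. The other 4 were present in both: Trac stood at 340, 269, 305 and 313 CPM in members against 297, 254, 270 and 268 CPM in the rest, and Cd247, Trac, Trbc1 and Trbc2 were not called either way by the test below. Summed macrophage and monocyte genes without Ly6c2 stood at 24.6 to 147 CPM in members and 22.7 to 172 CPM in the rest, and 0 of 11 were called either way, with Lyz2 and the C1q genes of this list limited by the rule. NK and ILC1 genes reached 551 to 1034 CPM in members against 332 to 722 CPM, with 3 of 10 called higher and 3 lower. Gamma delta genes reached 111 to 223 CPM against 63.7 to 132 CPM, with 2 called in each direction. B cell genes were at 12.4 to 24.9 CPM against 60.7 to 141 CPM, and Ms4a1 was at 0 in members. Dendritic cell genes reached 500 to 1079 CPM against 573 to 1489 CPM, with 0 of 9 called higher and 2 lower. Among them Fscn1 stood at 102, 2.00, 165 and 44.4 CPM in members against 404, 4.07, 46.2 and 33.1 CPM. Neutrophil genes, which were not tested, reached 0.222 to 38.7 CPM against 0.185 to 19.9 CPM, with both maxima in the 1.25 mg/kg library. Members also had more UMIs, with medians of 11147, 14013, 7410 and 7061 per cell against 6572, 9187, 4960 and 5760 in the rest. A second productive beta chain, as 2 cells in 1 droplet would give, was seen in 5.41%, 12.6%, 7.05% and 10.7% of all members. In the rest it was seen in 5.07%, 7.46%, 5.38% and 5.98% of all cells. These totals include cells without any beta chain, so the shares among cells with one are larger. A beta chain was found in 598, 292, 852 and 1593 members and in 1270, 4341, 4057 and 5160 cells of the rest. Of these, 558, 253, 767 and 1372 members and 1180, 4001, 3776 and 4766 cells of the rest had exactly 1. On that base buffer members no longer had a larger share with a second chain than the rest, while members of the other libraries did. Each pair of libraries shared 45 to 195 barcodes, counted before any filter, of which 1 or 2 were members in both.

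To see what else these cells express, raw counts were summed over members and over the rest in each library, and the 8 sums were compared with edgeR's quasi-likelihood test with the library as a block and Benjamini-Hochberg adjustment. The replicates of this test are the 4 libraries, so it asks what members share across treatments. Of 11193 genes tested, 1519 were called higher in members (13.6%) and 1846 lower (16.5%) at an adjusted p under 0.05, together 30.1%. Of these, 1504 and 1805 had the same direction in all 4 libraries. The shares of 13.6% and 16.5% are the background for the list counts over the whole gate below. For list counts within clonotypes the background is 4.22% and 5.38%. The 1.25 mg/kg library carried many of the calls: without it 216 genes were higher and 618 lower, and without the TCE library 811 and 1134. With only the libraries of experiment 1, edgeR called 0 genes either way, with 1062 higher and 1363 lower at an unadjusted p under 0.05. With only experiment 2 the counts were 1820 and 1814. Among the genes named below, Gzmb, Serpinb9, Pdcd1, Havcr2, Tox, Il1r2, Cd244a, Fcer1g, Il2ra, Tnfrsf9, Mt1, Ifitm1, Ifitm2 and Itgae lost their call without the 1.25 mg/kg library, with the same direction. Without the TCE library Pdcd1, Havcr2, Tox, Fcer1g, Tnfrsf9, Ifitm1, Ifitm2 and Itgae lost it, without buffer Gzmb and Pdcd1, and without 10 mg/kg Tox.

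Because members were far more often in expanded T cell clones than the rest, 2 narrower comparisons were added after the data had been seen. The first kept only cells with at least 1 Pdcd1 UMI, a gene that T cell receptor signals induce. The second kept only clonotypes (cells with the same alpha and beta chain) that held at least 1 member and at least 1 cell of the rest. Both sides thus hold the same set of receptors, in proportions that can differ. Cells were summed over these clonotypes without pairing or weighting by clone. In clones of at least 10 gated cells, the share of members ran from 4.76% to 91.2% in buffer and from 22.2% to 81.0% after 1.25 mg/kg. Differences between clones can therefore enter this comparison. The second comparison had 62, 46, 132 and 167 clonotypes, with 443, 147, 651 and 1227 member cells and 374, 93, 767 and 1291 cells of the rest. Of 10632 genes tested in Pdcd1-positive cells, 876 were higher in members (8.24%) and 1057 lower (9.94%). Of 9821 genes tested within clonotypes, 414 were higher (4.22%) and 528 lower (5.38%), and 335 and 357 of these were called in the same direction over the whole gate. Median UMIs within clonotypes were still larger in members, at 12253, 13096, 7222 and 6712 against 8398.5, 10175, 5248 and 5371. With cells thinned to 3000 UMIs, 214 and 298 genes were called within clonotypes. Without the 1.25 mg/kg library the counts were 203 and 374, and without the TCE library 198 and 317.

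Among the other granzymes, Gzmg followed the set. Gzmg, the paralog that lies between Gzmd and Gzmn, stood at 230, 117, 178 and 97.5 CPM in members and at 4.81, 0.0926, 0.0711 and 0.0242 CPM in the rest, a log2 difference of 8.06 (SE 0.80, adjusted p = 0.00258, edgeR). The groups did not overlap. It was seen in 66, 40, 139 and 170 members only (8.93%, 12.9%, 11.5% and 8.20%), and a single cell held 55.2% of its UMIs in buffer and 37.2% after 10 mg/kg. Without the leading cell of each library its level in members was 103, 73.4, 151 and 85.5 CPM. Its transcript is close to that of rule genes, so that it is not independent of the rule. Gzmn had almost no UMIs and was not tested.

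Gzmb, the main apoptosis-inducing granzyme, was higher in members over the whole gate, at 6926, 5907, 4836 and 3167 CPM against 3134, 2061, 1623 and 3009 CPM (log2 difference 1.04, SE 0.24, adjusted p = 0.0228, edgeR). In the TCE library the 2 levels lay close together. Within clonotypes the gap was present in all 4 libraries, at 7873, 6249, 5367 and 3122 CPM against 4776, 3082, 1879 and 1244 CPM (log2 difference 1.19, SE 0.09, adjusted p = 7.27e-07, edgeR). Prf1, which encodes perforin, stood at 1415, 693, 759 and 506 CPM against 358, 69.5, 151 and 132 CPM (log2 difference 2.34, SE 0.21, adjusted p = 0.00196). It stayed higher within clonotypes, at 1594, 709, 839 and 558 CPM against 724, 432, 413 and 269 CPM (log2 difference 1.05, adjusted p = 5.48e-08, edgeR).

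The granzymes of other loci went the other way or did not pass. Gzmm, which encodes a granzyme of resting NK and innate-like cells, stood at 4.92, 16.9, 3.51 and 2.88 CPM in members and 17.2, 174, 65.0 and 21.3 CPM in the rest (log2 difference -3.18, SE 0.35, adjusted p = 0.00312, edgeR). Gzma stood at 93.3, 231, 204 and 558 CPM in members against 419, 208, 249 and 3644 CPM, and was not called over the whole gate (log2 difference -1.29, SE 0.49, adjusted p = 0.0918, edgeR). It was called lower without the 10 mg/kg library (-1.73 on the log2 scale) and after thinning (-1.38). Within clonotypes Gzma was lower, at 58.5, 365, 240 and 223 CPM against 408, 266, 426 and 423 CPM, in 3 of 4 libraries (log2 difference -0.99, SE 0.28, adjusted p = 0.0374, edgeR). Gzmk stood at 94.8, 56.6, 37.2 and 105 CPM against 162, 14.2, 34.5 and 171 CPM and did not pass over the whole gate (log2 difference 0.04, adjusted p = 0.954), but was lower within clonotypes (-0.61, SE 0.13, adjusted p = 0.00544, edgeR).

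Of 17 measured genes of the killing machinery, 8 were higher in members (Prf1, Nkg7, Ctsc, Cst7, Fasl, Tnfsf10, Rab27a and Vamp7) and 1, Slfn2, was lower. Cst7, which encodes cystatin F, a regulator of granule proteases, stood at 712, 643, 725 and 579 CPM against 428, 299, 408 and 317 CPM (log2 difference 0.84, SE 0.07, adjusted p = 0.00128, edgeR). Within clonotypes 3 of these 17 were higher and 2 lower.

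The serpins, which inhibit serine proteases and can shield cytotoxic cells from their own granules, were higher in 6 of 8 cases and lower in 0. Serpinb9b, a close relative of the granzyme B inhibitor Serpinb9, stood at 589, 363, 142 and 176 CPM in members against 65.8, 6.97, 8.49 and 32.0 CPM (log2 difference 3.75, SE 0.51, adjusted p = 0.0052, edgeR). No library overlapped with its own rest, and the gap was kept within clonotypes at 723, 383, 167 and 195 CPM against 136, 143, 28.3 and 61.1 CPM (2.08, SE 0.13, adjusted p = 1.25e-07, edgeR). Serpinb9 itself stood at 640, 594, 583 and 642 CPM against 408, 166, 326 and 467 CPM (log2 difference 0.90, adjusted p = 0.0190, edgeR). Serpine2 (2.22) and Serpinb6a (1.56) were also higher on the log2 scale. Within clonotypes 4 of the 8 were higher and 1 lower.

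Genes of inhibitory receptors and exhaustion gave different answers by comparison. Over the whole gate 8 of 20 were higher (Pdcd1, Havcr2, Entpd1, Cd38, Cd244a, Cd200r1, Tox and Il1r2) and 2 lower (Cd160 and Nt5e). Among Pdcd1-positive cells 6 of 20 were higher (Havcr2, Lag3, Entpd1, Cd244a, Cd200r1 and Il1r2) and 3 lower (Cd160, Nt5e and Adora2a). Within clonotypes 4 were higher (Havcr2, Entpd1, Cd244a and Il1r2) and 10 lower, among them Lag3, Tigit, Ctla4, Tox and Cd160. Lag3 was thus called in opposite directions by these narrower comparisons. Pdcd1, which encodes the receptor PD-1, stood at 682, 683, 870 and 979 CPM in members against 391, 43.8, 345 and 474 CPM over the whole gate (log2 difference 1.67, SE 0.50, adjusted p = 0.0477, edgeR). Within clonotypes it stood at 753, 733, 945 and 1049 CPM against 715, 773, 1026 and 1189 CPM and did not pass (log2 difference -0.03, SE 0.05, adjusted p = 0.792, edgeR). Tox, which encodes a factor of the exhausted state, turned from 82.3, 44.9, 42.7 and 74.5 CPM against 74.96, 16.1, 34.6 and 38.6 CPM (log2 difference 0.66, adjusted p = 0.0462) to 92.1, 46.1, 43.8 and 85.2 CPM against 128, 76.3, 76.7 and 106 CPM within clonotypes (-0.47, SE 0.08, adjusted p = 0.00146, edgeR). Pooled members of these clonotypes were thus lower in Tox than the pooled cells with a sum under 5, in all 4 libraries.

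Havcr2 (the checkpoint receptor TIM-3) stood at 181, 122, 139 and 160 CPM against 81.8, 3.08, 28.8 and 53.2 CPM (log2 difference 2.35, SE 0.62, adjusted p = 0.0331, edgeR) and stayed higher within clonotypes (0.66, SE 0.08, adjusted p = 9.23e-05, edgeR). Entpd1, which encodes the ectonucleotidase CD39, stood at 133, 99.5, 103 and 101 CPM against 66.8, 21.5, 29.7 and 59.4 CPM (log2 difference 1.39, adjusted p = 0.00786, edgeR), and the gap within clonotypes was 0.39. Il1r2, the decoy receptor of interleukin 1, stood at 181, 90.6, 189 and 137 CPM against 47.0, 1.62, 28.5 and 18.7 CPM (log2 difference 3.10, SE 0.54, adjusted p = 0.0106, edgeR). Within clonotypes Il1r2 kept a gap of 1.49 on the log2 scale (SE 0.07, adjusted p = 2.55e-09, edgeR), with 203, 94.7, 195 and 147 CPM against 68.3, 28.9, 81.7 and 55.1 CPM. Lag3 was not called over the whole gate (log2 difference 1.63, adjusted p = 0.0527, edgeR).

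**Figure D2:**
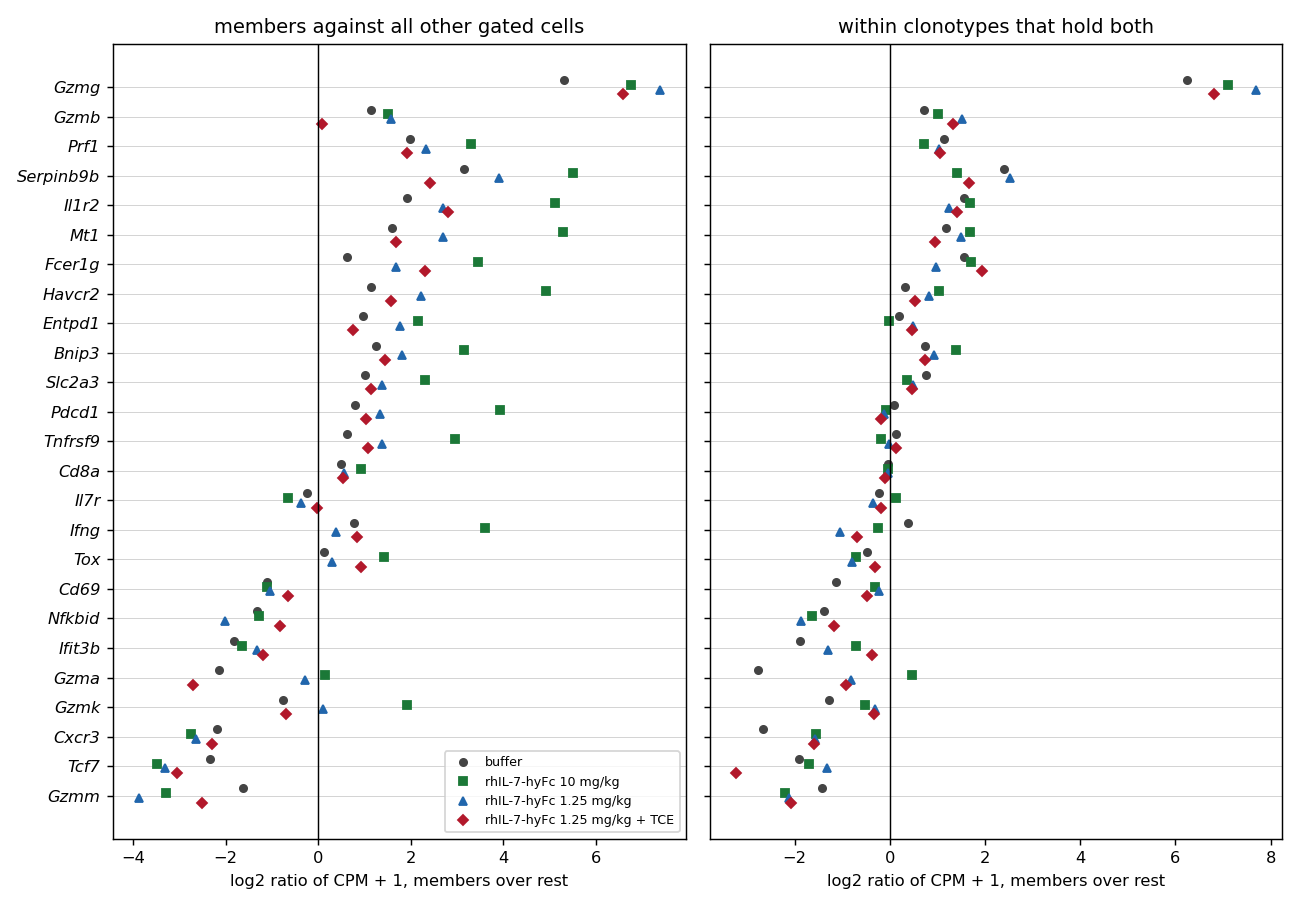
Log2 ratio of CPM + 1, members over rest, for 25 named genes, with 1 symbol per library. Left, all gated cells, and right, clonotypes that hold both kinds of cell. Gzmg, Serpinb9b, Il1r2 and Prf1 lie right of 0 in both panels in every library, Tcf7, Cxcr3 and Gzmm lie left of 0 in both, and Pdcd1, Tnfrsf9 and Cd8a close up to 0 within clonotypes.

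Members had lower levels of nearly all naive and memory genes. Of 21 measured, 0 were higher and 19 lower, with a median log2 difference of -2.29 against -0.02 over all genes tested, and the uncalled members of the list were Il7r and Ly6c2. Tcf7, which encodes the stem-like and memory factor TCF-1, stood at 13.7, 14.7, 17.7 and 10.5 CPM against 73.2, 175, 184 and 93.5 CPM (log2 difference -3.17, SE 0.21, adjusted p = 0.00106, edgeR). S1pr1, a receptor for leaving tissue, stood at 9.38, 11.3, 4.01 and 5.03 CPM against 57.0, 130, 59.3 and 40.7 CPM (-3.26, SE 0.22, adjusted p = 0.00106, edgeR). No member level reached that of the rest of its library for either of these genes. Within clonotypes 12 of 17 were lower and 0 higher, and Tcf7 stood at 1.76, 4.05, 4.69 and 1.70 CPM against 9.45, 15.5, 13.2 and 24.5 CPM (-2.55, SE 0.30, adjusted p = 4.91e-05, edgeR). Il7r, the receptor chain that rhIL-7-hyFc binds, was not called in either comparison (log2 differences -0.36 and -0.16, adjusted p = 0.0821 and 0.143, edgeR).

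The other most lowered genes of at least 50 CPM were Nsg2 (-3.20 on the log2 scale), Klf3, a quiescence factor (-2.98), Cd7 (-2.76) and Cxcr4, a chemokine receptor (-2.62). Of 19 chemokine receptors and integrins, 4 were higher and 8 lower over the whole gate, and 1 and 10 of 18 within clonotypes. Cxcr3, the receptor for interferon-induced chemokines, stood at 17.2, 18.4, 15.7 and 22.6 CPM against 81.5, 130, 104 and 115 CPM (log2 difference -2.56, SE 0.14, adjusted p = 0.000638, edgeR). Within clonotypes it stood at 5.64, 14.7, 9.19 and 14.9 CPM against 41.2, 45.4, 29.4 and 47.5 CPM (-1.86, SE 0.16, adjusted p = 2.36e-06, edgeR). Of 16 tissue residency genes, 5 were higher and 4 lower. Itgae, which encodes CD103, was near the floor in both, at 0.429 to 1.55 CPM in members and 1.83 to 4.31 CPM in the rest, and was called lower (-1.58, adjusted p = 0.0195, edgeR).

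Glycolysis and hypoxia genes were higher in members: 20 of 22 passed and 0 were lower, with a median log2 difference of 0.64. Pfkfb3 and Pdk1 did not pass. Bnip3, a hypoxia-induced mitophagy gene, stood at 126, 67.1, 105 and 67.3 CPM against 52.2, 6.66, 29.0 and 24.2 CPM (log2 difference 1.89, adjusted p = 0.00775, edgeR). Slc2a3, a glucose transporter gene, had a log2 difference of 1.44 (SE 0.19, adjusted p = 0.00512, edgeR), and Gapdh, a glycolytic enzyme gene, stood at 1232, 1119, 926 and 1036 CPM against 838, 496, 503 and 741 CPM (0.73, adjusted p = 0.00578, edgeR). Within clonotypes 15 of the 22 were higher and 0 lower, and among Pdcd1-positive cells 17 and 0. Of the cholesterol synthesis genes, 9 of 19 were higher and 1 lower over the gate, and 7 and 0 within clonotypes. Actin and cytoskeleton genes were higher in 11 of 23 and lower in 0 over the gate, and in 10 and 1 within clonotypes. Of 30 oxidative phosphorylation genes, 3 were higher and 1 lower.

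Type I interferon response genes were lower in members. Of 28 measured, 0 were higher and 22 lower over the gate, with a median log2 difference of -0.48. The counts were 0 and 26 among Pdcd1-positive cells and 0 and 19 within clonotypes. Oasl2, an interferon-induced antiviral gene, stood at 26.8, 38.4, 35.0 and 15.4 CPM against 100.01, 198, 107 and 48.7 CPM (log2 difference -1.92, SE 0.15, adjusted p = 0.00139, edgeR), but did not pass within clonotypes. Ifit3b stood at 21.3, 44.6, 32.6 and 29.4 CPM against 77.9, 141, 83.1 and 68.3 CPM (-1.55, SE 0.12, adjusted p = 0.00128, edgeR). The small membrane proteins Ifitm1 and Ifitm2, which were not on this list, went the other way. Ifitm1 stood at 1064, 3353, 3483 and 2228 CPM against 311, 110, 940 and 502 CPM (2.57, SE 0.53, adjusted p = 0.0165, edgeR).

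Early genes of T cell receptor signals were lower in members, most widely in the pooled comparison within clonotypes. Over the gate 0 of 18 were higher and 9 lower, and within clonotypes 0 of 17 were higher and 14 lower. The 14 were Nr4a1, Nr4a3, Egr2, Myc, Cd69, Spry1, Spry2, Dusp2, Dusp4, Nfkbid, Nfkbiz, Tnfaip3, Junb and Fosl2. Nfkbid, an NF-κB regulator, stood at 27.9, 28.4, 19.1 and 24.2 CPM in members against 71.1, 70.1, 80.3 and 43.6 CPM over the gate (log2 difference -1.42, adjusted p = 0.00526, edgeR). Within clonotypes Nfkbid stood at 17.4, 20.3, 15.3 and 21.5 CPM against 47.2, 64.9, 58.7 and 50.05 CPM (-1.46, adjusted p = 1.13e-06, edgeR). Of 20 cytokine and chemokine genes, 5 were higher and 4 lower over the gate. Within clonotypes 1, Spp1, was higher and 8 lower (Csf2, Ccl1, Ccl4, Ccl5, Xcl1, Cxcl10, Tnfsf9 and Tnfsf14). Spp1, which encodes osteopontin, stood at 324, 266, 268 and 241 CPM against 76.6, 13.2, 64.8 and 52.3 CPM over the gate (2.58 on the log2 scale, SE 0.38, adjusted p = 0.00653, edgeR), and Ccl5 at 1098, 654, 1021 and 2288 CPM against 3309, 3121, 2348 and 4881 CPM (-1.57, adjusted p = 0.00557, edgeR). Spp1 was seen in 34.0%, 38.5%, 28.7% and 20.6% of members, with 55.3%, 54.3%, 30.4% and 38.0% of its UMIs in 10 cells. Ifng, which encodes interferon gamma, did not pass in either comparison (log2 differences 1.30 and -0.36, adjusted p = 0.102 and 0.162, edgeR).

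Other groups were mixed. Of 26 transcription factors of CD8 T cells, 8 were higher and 4 lower, and within clonotypes 3 and 8. Irf8 stood at 983, 873, 784 and 548 CPM against 449, 86.3, 234 and 182 CPM (log2 difference 1.89, SE 0.32, adjusted p = 0.00956, edgeR), while Eomes, a memory and exhaustion factor, stood at 13.8, 16.0, 13.4 and 19.5 CPM against 28.1, 68.4, 57.9 and 47.1 CPM (-1.65, adjusted p = 0.0052, edgeR). Epas1, a hypoxia factor, was low but higher in members (2.25 over the gate, 1.29 within clonotypes, on the log2 scale). Of 27 genes of the interleukin 2, interleukin 15 and STAT5 response, 9 were higher and 9 lower over the gate, and 4 and 10 within clonotypes. Il2ra, which encodes CD25, and Tnfrsf9, which encodes 4-1BB, were called higher over the gate (0.93 and 1.46, adjusted p = 0.0132 and 0.0231, edgeR) and not within clonotypes (0.08 and 0.07, adjusted p = 0.587 and 0.494). Mt1, a metallothionein gene of that list, stood at 192, 210, 315 and 360 CPM against 62.6, 4.42, 47.5 and 112 CPM (adjusted p = 0.0236, edgeR) and stayed higher within clonotypes (1.31 on the log2 scale, adjusted p = 1.25e-07).

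NK-type receptor genes were called higher in 8 of 28 cases and lower in 8. Fcer1g, a signalling adaptor of NK cells and innate-like T cells, stood at 398, 407, 589 and 259 CPM in members against 260, 36.3, 184 and 51.3 CPM (adjusted p = 0.017, edgeR). Within clonotypes it stood at 399, 360, 516 and 268 CPM against 134, 109, 265 and 69.4 CPM (log2 difference 1.56, SE 0.11, adjusted p = 4.57e-07, edgeR). Tyrobp, its partner adaptor, did not pass (log2 difference 0.05, adjusted p = 0.913, edgeR) and stood at 77.7, 18.0, 152 and 32.7 CPM against 141, 21.3, 88.2 and 22.4 CPM. Klrk1, which encodes NKG2D, did not pass over the gate (0.98, adjusted p = 0.127, edgeR) and was lower within clonotypes (-0.25, adjusted p = 0.00311). Of the remaining lists, the TGF-beta response had 0 higher and 6 lower of 11, CD3 and TCR signalling 7 and 6 of 21, costimulatory receptors 3 and 3 of 16, amino acid transport 6 and 3 of 16, MHC class I 1 and 4 of 19, and survival and death 1 and 6 of 22. Over all genes tested, 13.6% were higher and 16.5% lower.

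A pair of genes was singled out after their values had been seen, because they lie near the rule genes. Ctsg, which lies between Mcpt8 and Gzme, was not tested and had only 1, 1, 0 and 7 UMIs in members and 0 in the rest. Mcpt8, at the far end of the cluster, stood at 2.81, 7.11, 4.92 and 1.96 CPM in members and at 0, 0.0463, 0 and 0.0485 CPM in the rest (log2 difference 6.77, adjusted p = 0.00151, edgeR). Of the other 6 mast cell and basophil markers, Cpa3, Mcpt4, Tpsb2 and Fcer1a were at 0 in members, Ms4a2 was at 0 except for 0.201 CPM after 1.25 mg/kg, and Kit, which some T cells and progenitors also express, was called higher at 9.49, 7.33, 17.6 and 19.2 CPM against 7.79, 0.671, 5.12 and 7.90 CPM (1.5 on the log2 scale, adjusted p = 0.0328, edgeR). Gm4022, on the plus strand between Gzmn and Gzmf and overlapping one end of each (14:56173751-56207735), stood at 3.05, 2.22, 5.82 and 10.4 CPM in members (6.47, adjusted p = 0.00423, edgeR). The sources used here do not give the strand setting of the counting, so that its reads and those of these granzymes cannot be told apart.

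**Figure D3:**
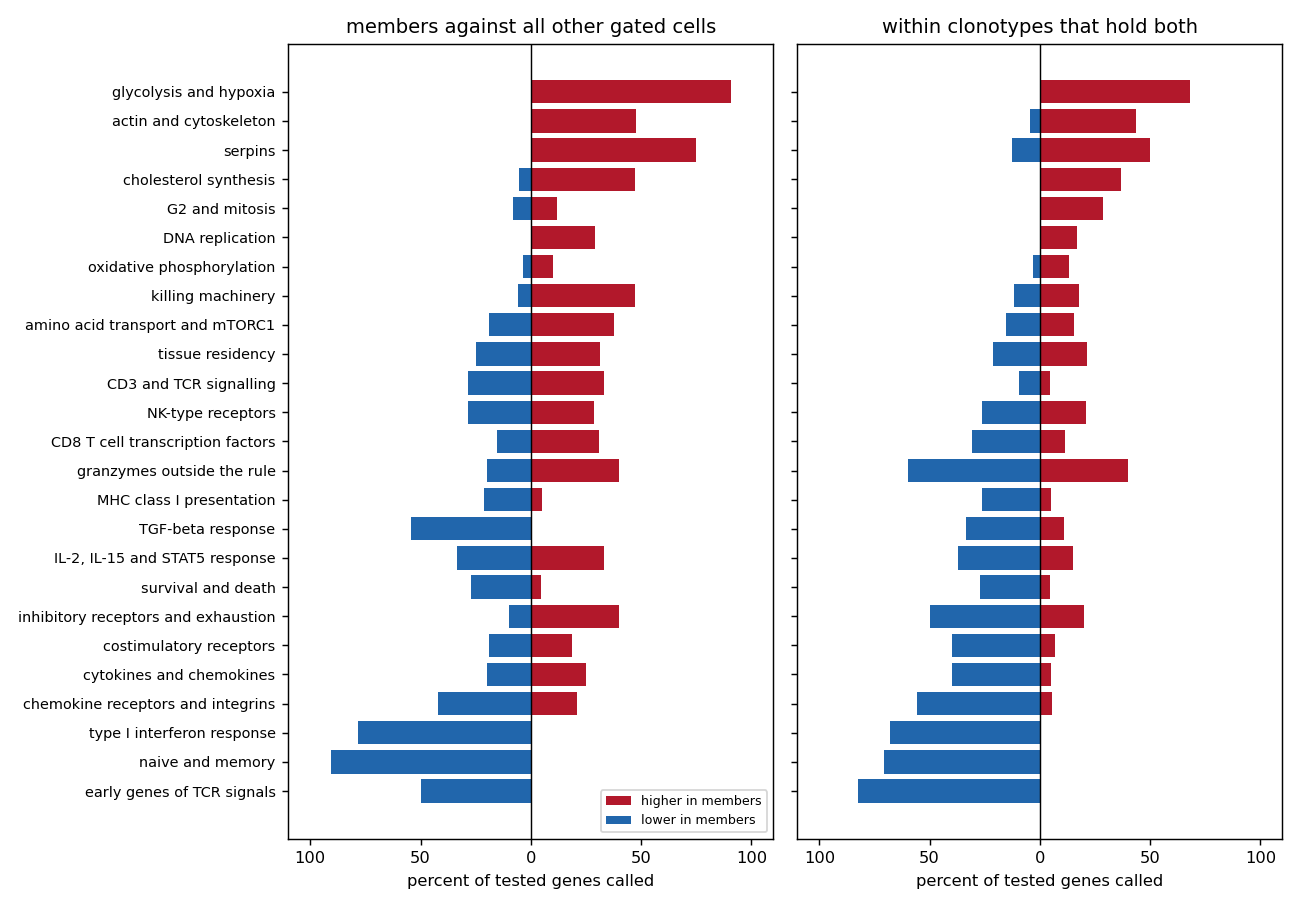
Percent of the tested genes of each of 25 lists called higher (right, red) or lower (left, blue) in members by edgeR, over all gated cells and within clonotypes that hold both kinds of cell. Glycolysis and hypoxia, serpin and actin genes extend to the right in both panels, naive and memory, interferon and early TCR signal genes extend to the left in both, and inhibitory receptor genes have 8 higher and 2 lower on the left and 4 higher and 10 lower on the right.

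Several genes differed by degree along the granzyme sum. The bins were set on all UMIs and not on thinned cells, and cells at the upper end also had more UMIs. Median UMIs per cell were 6575, 9138.5, 4874 and 5685 at a sum of 0, and 15755, 15559, 8480 and 8594 at 100 or more. The part of this depth in the trends was not tested. From cells without the 4 granzymes to cells with 100 or more UMIs, Prf1 went from 343 to 2054 CPM in buffer, from 63.8 to 860 CPM after 10 mg/kg, from 126 to 1076 CPM after 1.25 mg/kg and from 117 to 812 CPM with the TCE. Gzmb went from 3014 to 9943, from 2014 to 7174, from 1498 to 6326 and from 3069 to 4590 CPM over the same span. In the TCE library Gzmb first dipped to 2137 CPM at a sum of 5 or 6. Tcf7 went from 68.0 to 3.29, from 176 to 9.34, from 200 to 7.47 and from 103 to 7.93 CPM. Pdcd1 was at 691, 687, 829 and 908 CPM at 100 or more UMIs, and 467, 840 and 1081 CPM were already reached at 3 or 4 UMIs in the 3 libraries with rhIL-7-hyFc, below the threshold. Gzmg stood at 6.23, 28.0, 8.69 and 10.1 CPM at 20 to 99 UMIs and at 579, 185, 431 and 342 CPM at 100 or more. Gzma in the TCE library went from 3921 CPM without the 4 granzymes to 1311 at 3 or 4 UMIs, 730 at 5 or 6 and 297 at 100 or more.

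Cells just below and just above the threshold are set side by side here. Prf1 stood at 440, 237, 378 and 278 CPM at 3 or 4 UMIs and at 692, 263, 461 and 351 CPM at 5 or 6. Tcf7 stood at 62.6, 91.5, 43.3 and 14.1 CPM just below the threshold and 41.6, 47.2, 27.0 and 16.7 CPM just above it. The bin of 5 or 6 held only 12 cells after 10 mg/kg. Of buffer cells with a clonotype, 48.4% at 3 or 4 UMIs and 57.9% at 5 or 6 were in clones of 2 or more gated cells, and 98.8% at 100 or more. In the other libraries the share was 40.0%, 81.4% and 84.9% just below the threshold, 87.5%, 85.7% and 93.0% just above it, and 85.4%, 96.9% and 98.6% at 100 or more.

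**Figure D4:**
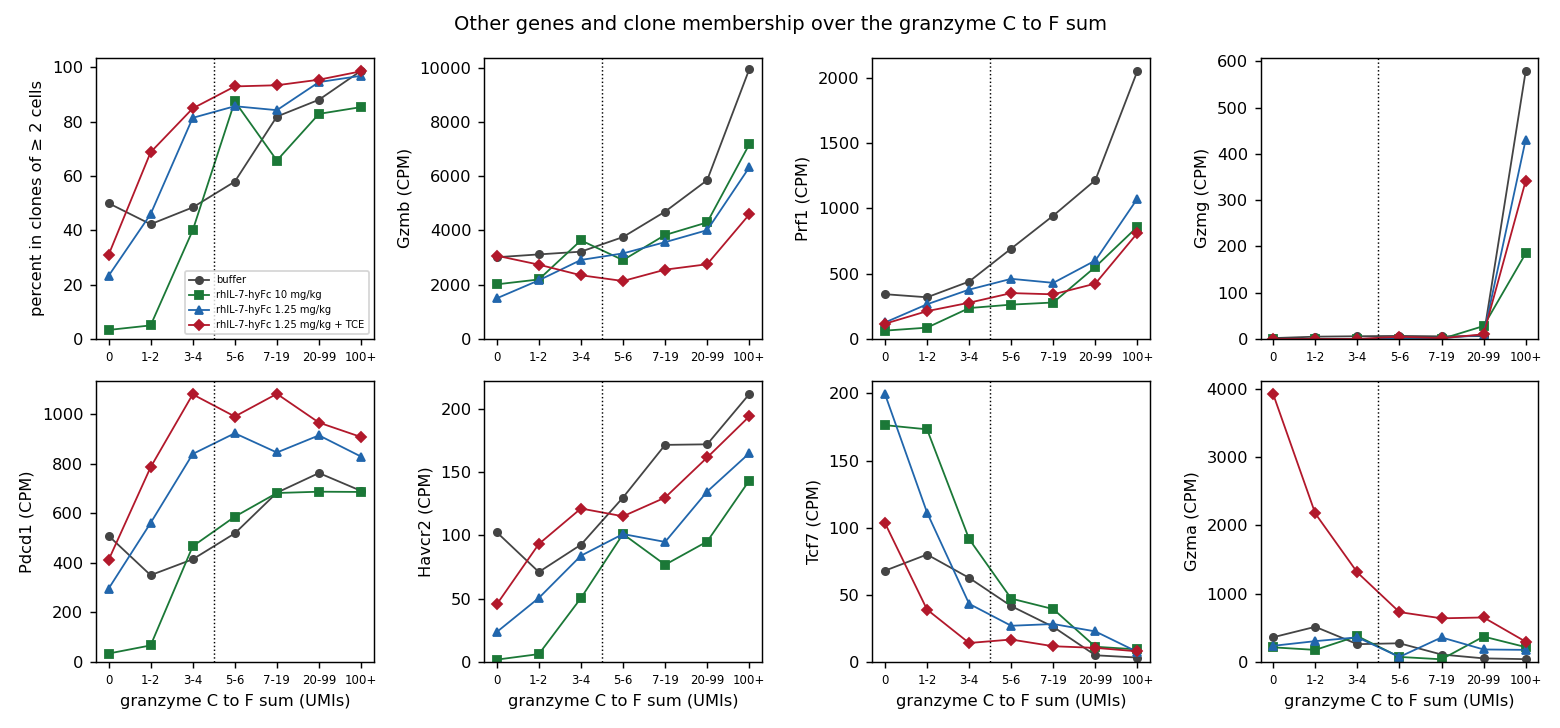
Percent of cells with a clonotype that are in clones of 2 or more gated cells, and levels of Gzmb, Prf1, Gzmg, Pdcd1, Havcr2, Tcf7 and Gzma in CPM, over bins of the summed Gzmc, Gzmd, Gzme and Gzmf UMIs per cell, with 1 line per library and the threshold of 5 as a dotted line. Prf1 and Havcr2 end highest at 100 or more UMIs, Gzmg is highest there, Tcf7 ends lowest, and Gzma drops from 3921 to 297 CPM in the TCE library. Cells were not thinned, and those at 100 or more UMIs of the sum also had the most UMIs in all.

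Clone membership, which the rule did not use, differed between members and the rest taken as a whole. A clonotype was a pair of productive alpha and beta chain sequences over the CDR3, the loop that contacts antigen. Of members with a clonotype (541, 249, 724 and 1312 cells), 84.1%, 81.9%, 93.1% and 95.4% were in clones of 2 or more gated cells, against 45.1%, 3.82%, 27.0% and 36.0% of the rest (1123, 3818, 3435 and 4338 cells). For cells of the rest with a sum of 3 or 4 the shares were 48.4%, 40.0%, 81.4% and 84.9%, so expansion was not particular to members. The mean difference between members and the whole rest was 60.6 percentage points (SD 16.4, n = 4 libraries, higher in 4 of 4, exact two-sided sign-flip permutation p = 0.125, the smallest that 4 libraries allow). The share of cell pairs with the same clonotype was 3.41%, 1.21%, 1.91% and 4.75% in members against 0.535%, 0.00369%, 0.0977% and 0.299% in the rest, with a mean difference of 2.59 points (SD 1.42, n = 4, exact permutation p = 0.125).

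Clones were split between members and rest. Members held 152, 112, 192 and 239 clonotypes, of which 62, 46, 132 and 167 were also found in the rest. These were 40.8%, 41.1%, 68.8% and 69.9% of the member clonotypes and 8.53%, 1.23%, 4.88% and 5.49% of the clonotypes of the rest. Of 22, 6, 42 and 60 clones with at least 10 gated cells, 0 consisted of members alone, and 0, 1, 0 and 1 had no member. The median share of members in these clones was 55.0%, 48.3%, 43.3% and 42.9%. Most large clones thus held cells on both sides of the threshold. Between any 2 libraries, 1 or 2 member clonotypes were shared.

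The largest clone among members of each library is shown, chosen after the values had been seen, with its CDR3 nucleotides from the deposited contigs. Capitals mark a 27-base end of the alpha CDR3, from TRAJ7, that recurred in unrelated clones. The alpha chains used TRAV9D-3, TRAV7D-2, TRAV7D-2 and TRAV7N-6, and the beta chains TRBV2, TRBV16, TRBV5 and TRBV16. The clones had 93, 16, 115 and 425 gated cells, of which 50, 14, 68 and 239 were members.
buffer, alpha: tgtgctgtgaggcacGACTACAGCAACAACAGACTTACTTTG
buffer, beta: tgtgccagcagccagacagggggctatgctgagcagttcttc
10 mg/kg, alpha: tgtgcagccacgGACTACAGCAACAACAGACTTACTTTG
10 mg/kg, beta: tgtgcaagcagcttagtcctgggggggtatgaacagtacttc
1.25 mg/kg, alpha: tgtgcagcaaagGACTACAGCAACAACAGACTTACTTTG
1.25 mg/kg, beta: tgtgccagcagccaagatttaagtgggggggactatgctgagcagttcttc
TCE, alpha: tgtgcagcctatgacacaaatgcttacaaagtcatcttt
TCE, beta: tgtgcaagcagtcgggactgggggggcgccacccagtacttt

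The same alpha end was carried by 21 of 152 member clonotypes in buffer (13.8%), 34 of 112 after 10 mg/kg (30.4%), 71 of 192 after 1.25 mg/kg (37.0%) and 80 of 239 with the TCE (33.5%). In the rest it was carried by 5.23%, 1.87%, 4.29% and 5.88% of clonotypes. The mean difference was 24.3 percentage points (SD 10.7, n = 4 libraries, higher in 4 of 4). The end was chosen from the largest member clones after they had been seen. That choice favours members, so the excess is a description and carries no test. Clonotypes of the rest in clones of 2 or more gated cells, which may also hold members, carried it in 17.1%, 36.5%, 32.5% and 33.8% of cases. Counted by cells, 32.9%, 43.0%, 48.5% and 22.03% of members and 13.5%, 2.59%, 13.2% and 11.1% of the rest had it, and the largest TCE clone, which uses TRAJ30, did not. TRAJ7 was the most frequent alpha J segment among member clonotypes in each library (13.8%, 33.0%, 37.5% and 33.9%). The invariant chain of NKT cells, TRAV11 with TRAJ18, was found in 0 members of every library. TRAV1 and TRAJ33, the segments of the MAIT alpha chain, were both found in 0, 0, 0 and 16 members and in 0, 8, 3 and 23 cells of the rest. A cell could have 2 alpha chains, and the segments were not required to lie on the same one. These counts therefore do not identify MAIT cells.

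**Figure D5:**
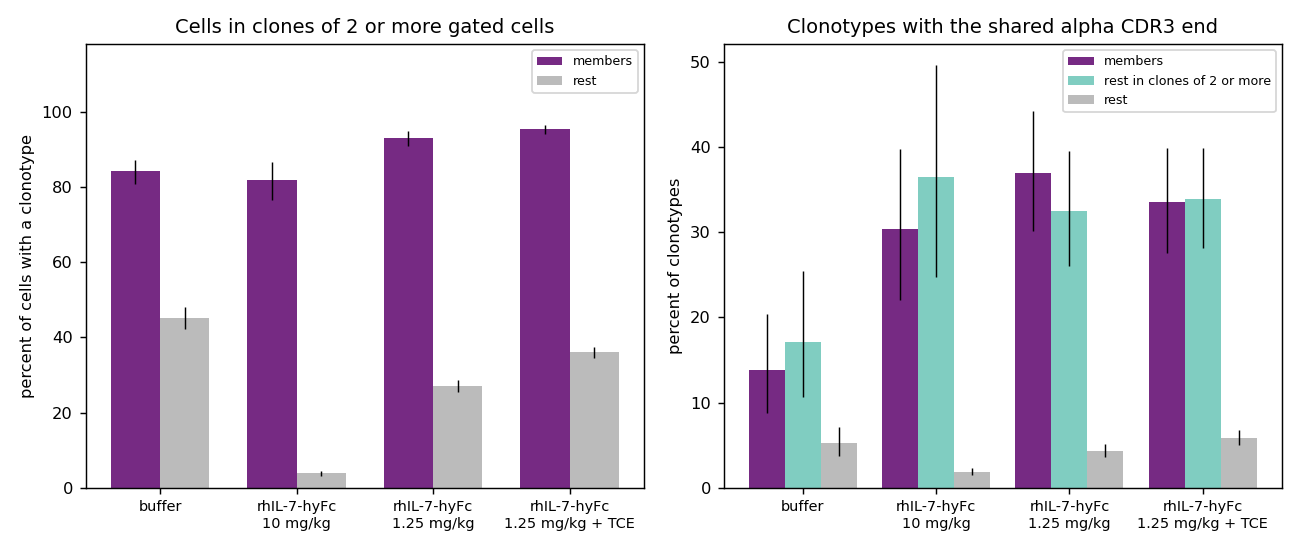
Left, percent of cells with a clonotype that were in clones of 2 or more gated cells, for members and the rest of each library. Right, percent of clonotypes that carry the shared alpha CDR3 end, for members, for clonotypes of the rest in clones of 2 or more, and for the whole rest. Bars show 95% Clopper-Pearson intervals, which cover counting error only. Members are above the rest in every library on the left, and on the right they overlap with the expanded clonotypes of the rest.

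The rule left out cycling cells, so the share of cells with at least 2 UMIs over Mki67 and Top2a was measured in the gate without that step. It was 32.6%, 34.7%, 21.4% and 17.9% of cells with a granzyme sum of at least 5, against 14.9%, 8.22%, 7.93% and 13.1% of the others. The mean difference was 15.6 percentage points (SD 9.01, n = 4 libraries, higher in 4 of 4, exact permutation p = 0.125, the smallest possible). After thinning to 3000 UMIs the shares were 15.1%, 14.2%, 12.4% and 9.84% against 7.85%, 3.76%, 4.96% and 7.39%. Among the members themselves, which passed the limit on both genes, 7 of 24 DNA replication genes were higher than in the rest and 0 lower, and 3 of 25 genes of G2 and mitosis were higher and 2 lower. Over all genes tested, 13.6% were higher and 16.5% lower, so the counts for G2 and mitosis do not exceed the background.

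Members of the 2 libraries of experiment 1 were then set side by side. Of 8537 genes with at least 5 CPM in either, 271 were past 1.5-fold higher after 10 mg/kg (3.17%) and 458 lower (5.36%), with no replicate check. Prf1 stood at 1415 CPM in buffer and 693 CPM after 10 mg/kg, a ratio of 0.490 (0.471 to 0.510). Gzmb stood at 6926 and 5907 CPM (0.853), Pdcd1 at 682 and 683 CPM (1.00), and Tox at 82.3 and 44.9 CPM (0.545). Gzma went from 93.3 to 231 CPM (2.48, 2.26 to 2.72) and Ifitm1 from 1064 to 3353 CPM (3.15, 3.07 to 3.23). The direction for Gzma depended on the granzyme sum. It stood at 274 and 74.2 CPM at a sum of 5 or 6, and at 109 and 39.4 CPM at 7 to 19. At 20 to 99 UMIs it stood at 53.2 and 372 CPM, and at 100 or more at 41.3 and 218 CPM. Xcl1, a chemokine for dendritic cells, stood at 102 and 244 CPM (2.41). Gzmg went from 230 to 117 CPM (0.508), and from 103 to 73.4 CPM without the leading cell of each library. Il2 had 269 UMIs in the 10 mg/kg members, of which 267 were in 1 cell.

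By lists, 13 of 24 DNA replication genes were past 1.5-fold lower in members after 10 mg/kg and 0 higher, and 8 of 28 interferon genes were higher and 0 lower. Glycolysis genes were lower in 5 of 22, cholesterol synthesis genes in 6 of 19 and G2 genes in 5 of 17, with 0 higher in each. The median log2 ratio of all genes was -0.04. The genes with the lowest ratios were Fscn1, a gene of mature dendritic cells, at 102 and 2.00 CPM, and the MHC class II genes, with Cd74 at 317 and 22.7 CPM. They also differed in the rest, where Fscn1 stood at 404 and 4.07 CPM and Cd74 at 979 and 27.6 CPM. Tyrobp stood at 77.7 and 18.0 CPM in members. The part of free RNA and of doublets in these differences was not tested. With members limited to a sum of at least 20 in both libraries, 437 genes were past 1.5-fold higher and 372 lower, so that the excess of lower genes did not hold.

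In experiment 2, of 8906 genes, 190 were past 1.5-fold higher in members with the TCE (2.13%) and 349 lower (3.92%). After thinning the counts were 427 and 386, so that here too the excess of lower genes depended on the setting. Of the 17 killing machinery genes, 1, Prf1, was past 1.5-fold lower and 0 higher, and of 4 granzymes outside the rule, Gzma and Gzmk were higher and Gzmb and Gzmg lower. Gzmb stood at 4836 CPM without and 3167 CPM with the TCE (ratio 0.655, 0.647 to 0.663), Prf1 at 759 and 506 CPM (0.666) and Gzmg at 178 and 97.5 CPM (0.549). Of the rule genes, whose levels are a description, Gzmc stood at 3454 and 1939 CPM (0.561) and Gzmf at 9038 and 7389 CPM (0.818). Gzmb in the rest had the opposite direction, at 1623 and 3009 CPM. Gzma went from 204 to 558 CPM in members (2.73, 2.60 to 2.87) and from 249 to 3644 CPM in the rest, so that the rest differed by more.

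Other genes that stood higher in members with the TCE were Gzmk, at 37.2 and 105 CPM (2.82), and the chemokine genes Ccl1, at 21.8 and 93.5 CPM (4.30, 3.72 to 4.98, with 65.9% and 56.4% of its UMIs in 10 cells), and Ccl5, at 1021 and 2288 CPM (2.24). The receptor gene Cd160 stood at 58.1 and 125 CPM (2.15) and Tox at 42.7 and 74.5 CPM (1.74), while Pdcd1 stood at 870 and 979 CPM (1.13) and Ifng at 180 and 177 CPM. By lists, 3 of 20 inhibitory receptor genes and 3 of 8 serpins were higher with 0 lower, and 9 of 28 interferon genes, 7 of 16 naive and memory genes and 5 of 22 glycolysis genes were lower with 0 higher. The median log2 ratio of all genes was 0.05. Fcer1g stood at 589 and 259 CPM (0.440) and Tyrobp at 152 and 32.7 CPM (0.215). Ccl2, a chemokine gene of myeloid cells, stood at 62.8 and 1.35 CPM in members and at 55.7 and 1.53 CPM in the rest, and its part in these lower values was not tested.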

How the data were processed

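Raw counts of UMIs for each gene in each barcode were deposited. The file headers name Cell Ranger 4.0.0 for experiment 1 and 6.1.2 for experiment 2, and the submitters' processing notes name GRCm38. The sources used here do not say how barcodes were kept. The deposited TCR contig tables give UMI counts per contig. Library totals were 47308214, 65036440, 118191371 and 92863323 UMIs. No doublets were removed and no doublet caller was run.

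Only the 30406 genes shared by both experiments were used. Counts were summed per library over members and rest and tested with edgeR 4.0.16 (R 4.3.3, TMM factors, filterByExpr, library block), with DESeq2 1.42.0 as an alternative. The 2 sums of a library come from the same mice and capture, which is where the pairing comes from. Genes were called at an adjusted p under 0.05, and between groups at 1.5-fold with at least 5 CPM. The members, gene lists and tests were chosen with earlier results of these data known. Named genes were the 12 highest and 8 lowest called genes of at least 50 CPM with 1 direction in all libraries, the 3 largest differences of each of 25 lists, a fixed set of T cell genes, and between groups the 5 highest and 5 lowest ratios. Genes named for membership of a list or position were chosen after their values were seen. The thresholds of 20 UMIs and the comparisons within clonotypes and Pdcd1-positive cells were added after seeing the data. On simulated data for the whole-gate test (10994 genes), 80.2% of 96 genes changed by 1 log2 unit and 95.8% of 96 changed by 2 were recovered. Of the calls on simulated data, 13 (7.14%) were false. The simulation changed far fewer genes than the 30.1% called in the data, so these rates may not carry over. Python 3.11.15 with numpy 2.4.6, pandas 2.3.3, scipy 1.17.1 and matplotlib 3.10.9 was used. Genes withheld for evaluation are not reported here.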

Additional observations from a re-analysis of the deposited data

Results flagged for a closer look

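Tyrobp, the adaptor that pairs with several NK receptors, lay in opposite directions in the 2 experiments. The log2 ratio of CPM + 1, members over rest, was -0.85 in buffer and -0.23 after 10 mg/kg, and 0.78 after 1.25 mg/kg and 0.53 with the TCE. The mean of experiment 1 minus that of experiment 2 was -1.19. The difference between the experiments was not tested.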

How the results depend on the processing

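Over the whole gate, 1519 genes were higher and 1846 lower in members. The replicate block mattered: with no replicate block, 278 were higher and 449 lower (1304 and 1473 at an unadjusted p under 0.05). Among Pdcd1-positive cells the counts were 876 and 1057, within clonotypes 414 and 528, and with experiment 1 only 0 and 0 by edgeR (1062 and 1363 at an unadjusted p under 0.05). Leaving out 1 library gave 216 to 1323 higher and 618 to 1531 lower. Within clonotypes the counts were 214 and 298 after thinning and 3 and 7 with no replicate block (268 and 301 at an unadjusted p under 0.05), and 198 to 368 and 317 to 446 with 1 library left out. Over 46 genes and 826 values under alternatives, 686 kept direction and side of the threshold, 96 lost the call, 20 gained it and 24 changed sign. Gzmk (0.04) turned to -0.35 with no replicate block, -0.10 thinned, -0.0324 and -0.0624 at sums of 10 and 20, -0.81 in Pdcd1-positive cells, -0.47 to 0.34 with 1 library left out (lowest without 10 mg/kg), -0.35 in experiment 2 only and -0.61 within clonotypes. Tyrobp (0.05) turned to -0.14 thinned, -0.0114 and -0.12 at sums of 10 and 20, -0.12 with 1 productive beta chain, -0.22 to 0.36 with 1 library left out (lowest without 1.25 mg/kg, and -0.13 without TCE), -0.62 in experiment 1 only and -0.25 within clonotypes. Tox turned to -0.14 in Pdcd1-positive cells and -0.47 within clonotypes. Also within clonotypes, Pdcd1 turned to -0.0304, Lag3 to -0.17, Ifng to -0.36, Klrk1 to -0.25, Cd8a to -0.00961 and Cd8b1 to -0.0501. The cause was not tested.

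Member shares in buffer were 50.3% at a sum of 3, 18.6% at 10, 16.0% at 20, 34.4% with no cycling limit, 32.1% with 1 beta chain, 20.6% thinned and 11.6% thinned at a sum of 20. After 10 mg/kg they were 5.24% at 20, 8.70% with no cycling limit, 5.33% thinned and 3.72% thinned at 20. After 1.25 mg/kg they were 20.5% at 3, 16.5% at 10, 14.1% at 20, 21.3% with no cycling limit, 16.9% with 1 beta chain, 17.2% thinned and 10.8% thinned at 20. With the TCE they were 26.1% at 3, 20.4% at 10, 16.2% at 20, 24.98% with no cycling limit, 22.4% with 1 beta chain, 20.6% thinned and 10.8% thinned at 20. The gap buffer minus 10 mg/kg was 23.03 points, 43.3 at 3, 12.8 at 10, 10.7 at 20, 25.7 with no cycling limit, 26.2 with 1 beta chain, 15.3 thinned and 7.90 thinned at 20. The gap TCE minus alone was 5.20 points, 2.06 at 20, 3.32 thinned and -0.0502 thinned at 20. Counts past 1.5-fold in experiment 1 were 741 higher and 1201 lower after thinning, 437 higher and 372 lower at a sum of 20, 116 and 130 with at least 20 CPM, and 832 and 964 with each clonotype counted once. In experiment 2 they were 427 higher and 386 lower after thinning, 69 and 151 with at least 20 CPM, and 735 and 612 with each clonotype once. Thinning and fewer cells leave fewer counts per gene, which widens the counting error of each ratio.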
